A study of Mus musculus with 15 samples.

Results

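Collagen VI (*Col6a1*, *Col6a2*, *Col6a3*, *Col6a5*), collagen IV (*Col4a1*, *Col4a2*), perlecan (*Hspg2*) and the nidogens (*Nid1*, *Nid2*) form the matrix that lies directly against the chondrocyte. The 9 genes were taken by name from the 24134 genes of the count tables, and all 9 were found in both tables. They were followed in unpassaged articular chondrocytes that had been isolated from the knee cartilage of ICR mice within a week of birth, in which tankyrase was either knocked down or inhibited. In the siRNA experiment, cells were transfected with control siRNA (siCtrl) or with siRNAs against *Tnks* and *Tnks2* together (siTnks/2). In the drug experiment, cells received DMSO, 10 µM XAV939 or 10 µM IWR-1 for 108 h. XAV939 and IWR-1 are tankyrase inhibitors that act by different modes. Each of the 5 groups had 3 RNA-seq libraries, described in the study as biological replicates. The question was how each gene of this layer responded to the loss of tankyrase and to either inhibitor.

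Every chondrocyte in cartilage is wrapped in a thin pericellular matrix that separates it from the collagen II and aggrecan of the territorial matrix. Collagen VI microfibrils are its hallmark. An α1, an α2 and a further chain (α3, or one of the later-described α4, α5 and α6 chains) fold into one molecule before secretion. Basement membranes elsewhere are built on a collagen IV network, usually with α1 and α2 chains. Nidogens link that network to laminin, and perlecan, a heparan sulfate proteoglycan, binds all of these components and stores growth factors. Cartilage has no sheet-like basement membrane, but its pericellular matrix holds collagen IV, nidogens, laminins and much perlecan.

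The genes of the 2 collagen IV chains lie head to head on mouse chromosome 8. In the RefSeq annotation of GRCm38.p6 (the mm10 assembly, used for all gene positions given here), *Col4a1* (gene ID 12826) runs on the minus strand from 11198423 to 11312889 and *Col4a2* (gene ID 12827) on the plus strand from 11312805 to 11449287. The RefSeq promoter windows, which run from 250 bases before to 50 bases after a start site, share 78 bases, chr8:11312777-11312854, and the start sites lie 21 bases apart, each inside the transcribed part of the other gene. These windows are shown because *Col4a2* was the gene whose pattern over the 15 libraries came closest to that of *Col4a1*. Each is written 5′ to 3′ on its gene's own strand, *Col4a1* for chr8:11312777-11313076 (minus) and *Col4a2* for chr8:11312555-11312854 (plus). Capitals mark the shared bases, which are the reverse complement of each other.
Col4a1: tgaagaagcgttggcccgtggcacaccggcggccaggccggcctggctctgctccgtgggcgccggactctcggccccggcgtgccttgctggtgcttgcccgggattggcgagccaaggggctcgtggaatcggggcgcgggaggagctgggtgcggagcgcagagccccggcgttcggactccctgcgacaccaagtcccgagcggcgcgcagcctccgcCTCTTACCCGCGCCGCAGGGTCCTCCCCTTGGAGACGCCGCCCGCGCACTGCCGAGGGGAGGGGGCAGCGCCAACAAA
Col4a2: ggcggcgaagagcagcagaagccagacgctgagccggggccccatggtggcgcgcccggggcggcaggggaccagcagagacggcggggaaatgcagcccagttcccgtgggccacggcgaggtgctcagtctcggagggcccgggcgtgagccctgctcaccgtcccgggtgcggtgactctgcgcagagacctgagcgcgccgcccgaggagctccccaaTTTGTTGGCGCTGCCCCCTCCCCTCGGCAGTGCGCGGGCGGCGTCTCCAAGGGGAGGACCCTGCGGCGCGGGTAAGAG

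The shared stretch had a G+C content of 73.1% and held 1 match to GGGCGG, the GC box. Windows were on record for 8 of the 9 genes, and all were searched on both strands for 5 short motifs. The GC box was found in the windows of *Col6a2*, *Col6a5*, *Col4a1*, *Col4a2*, *Hspg2* and *Nid1*, against 35.7% of all 32851 RefSeq promoter windows of mouse. A CCAAT box occurred once each in *Col4a1*, *Col4a2* and *Nid1* (37.4% of all windows). CTTTGA, the core of a TCF/LEF site, occurred in *Col6a1* and in 1 of the 2 windows of *Col6a2* (16.0% of all windows). Neither TATAAA (13.6%) nor the SOX core ACAAAG (18.7%) was present in any of the 9 windows of these genes. Such matches describe the letters of the window and nothing about binding.

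The libraries held between 26857070 and 36615194 counted reads. *Tnks* was reduced from a mean of 65.8 to 18.7 CPM (counts per 1000000 reads of the TMM-scaled library) by the siRNAs and *Tnks2* from 118 to 54.8 CPM (edgeR quasi-likelihood test, adjusted p = 0.00569 and 0.00384). Chondrocyte markers (15 genes) dominated in every group, with summed levels of at least 29426 CPM. The summed level of 10 endothelial markers was between 1.13 and 3.36 CPM in 14 libraries and 12.1 CPM in siTnks/2 replicate 2, where *Pecam1* stood at 3.17 and *Cdh5* at 2.28 CPM. Of 10 mural cell markers, *Pdgfrb* made up most of a sum of 113 to 199 CPM. The sum of 10 muscle markers reached at most 8.13 CPM. Leukocyte markers (10 genes) summed to 20.5 to 62.7 CPM, mostly *Laptm5* and *Cd14*, with *Ptprc* at or under 0.16 CPM, and were higher with siTnks/2 (40.7 to 62.7 CPM) than with siCtrl (20.5 to 22.9 CPM). In bulk RNA, fewer cells of one type and less RNA per cell cannot be told apart.

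**Figure D1:**
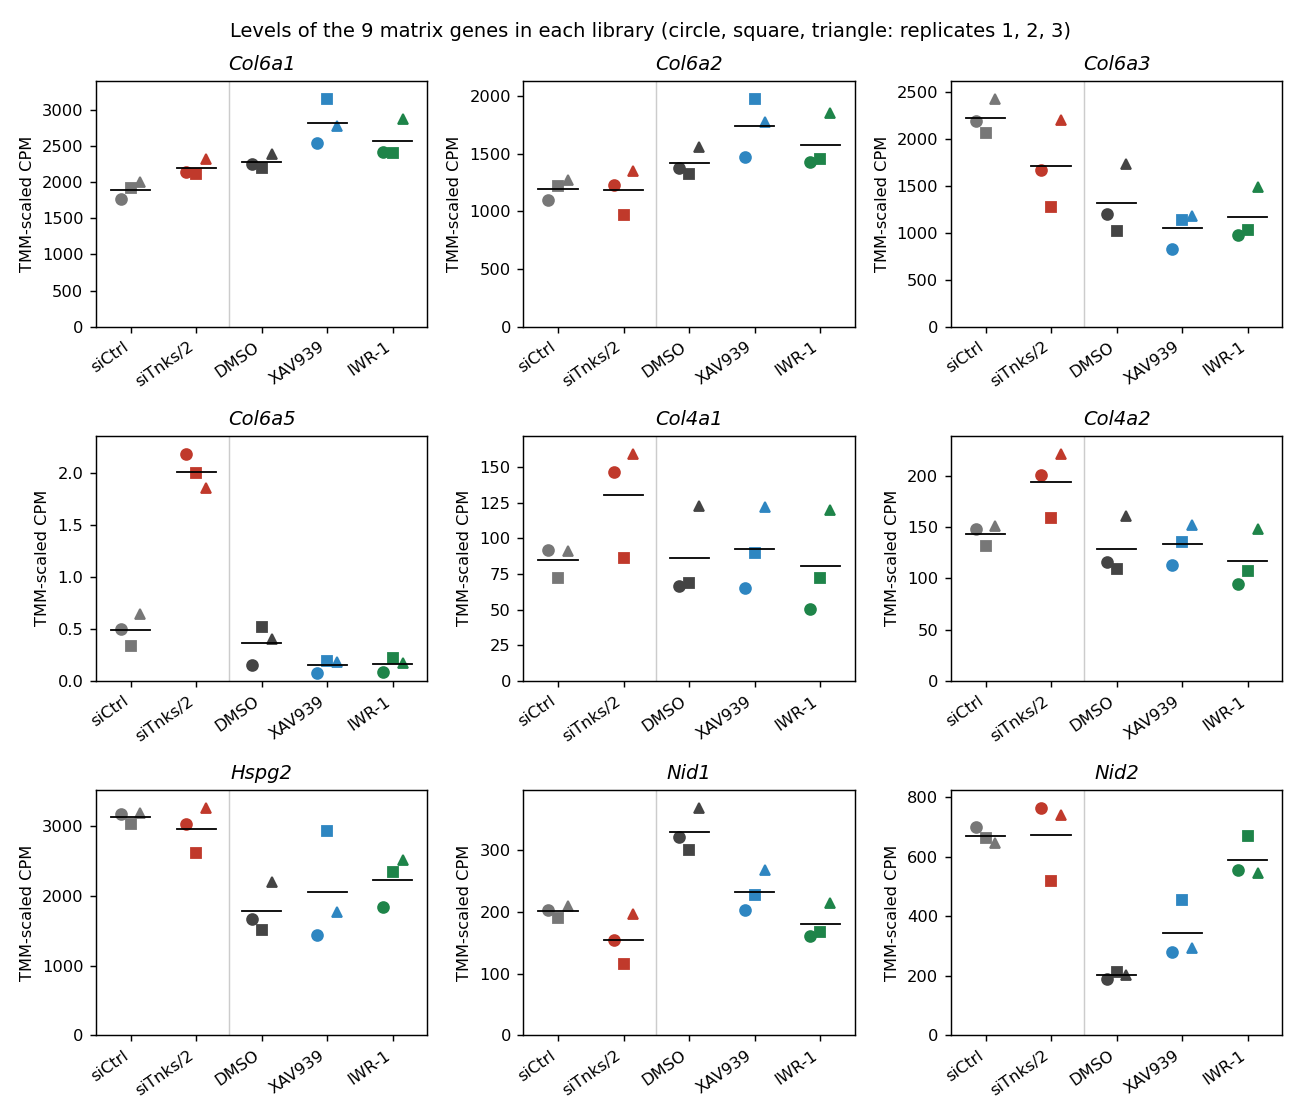
Level of each gene in each of the 15 libraries, as TMM-scaled CPM on a linear axis from 0, with the siRNA groups left and the drug groups right of the grey line. Points are libraries (circle, square and triangle for replicates 1, 2 and 3) and the bar is the group mean. *Nid2* was lowest with DMSO (190 to 213 CPM), and *Col6a5* stayed under 0.7 CPM outside the siTnks/2 group.

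Levels here are CPM scaled by TMM within each table, and comparison between genes used CPM per kilobase of exon. *Col6a1* was the most abundant of the 9 per kilobase in every group, from 434 ± 26.9 (SD, n = 3) with siCtrl to 645 ± 70.4 with XAV939. *Hspg2* (219 ± 5.74), *Col6a3* (186 ± 15.3), *Col6a2* (144 ± 10.4) and *Nid2* (129 ± 5.36) followed in siCtrl. The lowest *Hspg2* value there still lay above every *Col6a3* value, whereas the ranges of *Col6a2* and *Nid2* overlapped. *Nid1* (28.8 ± 1.46), *Col4a2* (21.7 ± 1.60) and *Col4a1* (11.4 ± 1.51) formed a lower tier, and *Col6a5* came last (0.0522 ± 0.0165). With DMSO the order differed in its middle, where *Nid1* (47.3 ± 4.99) stood above *Nid2* (39.0 ± 2.20). The main collagen VI genes and perlecan were expressed far above collagen IV in all groups. The order of *Hspg2*, *Col6a2* and *Col6a3* depended on the exon length used, since the longest transcript of *Col6a2* (4912 bases) is much shorter than the union of its exons (8326 bases).

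**Figure D2:**
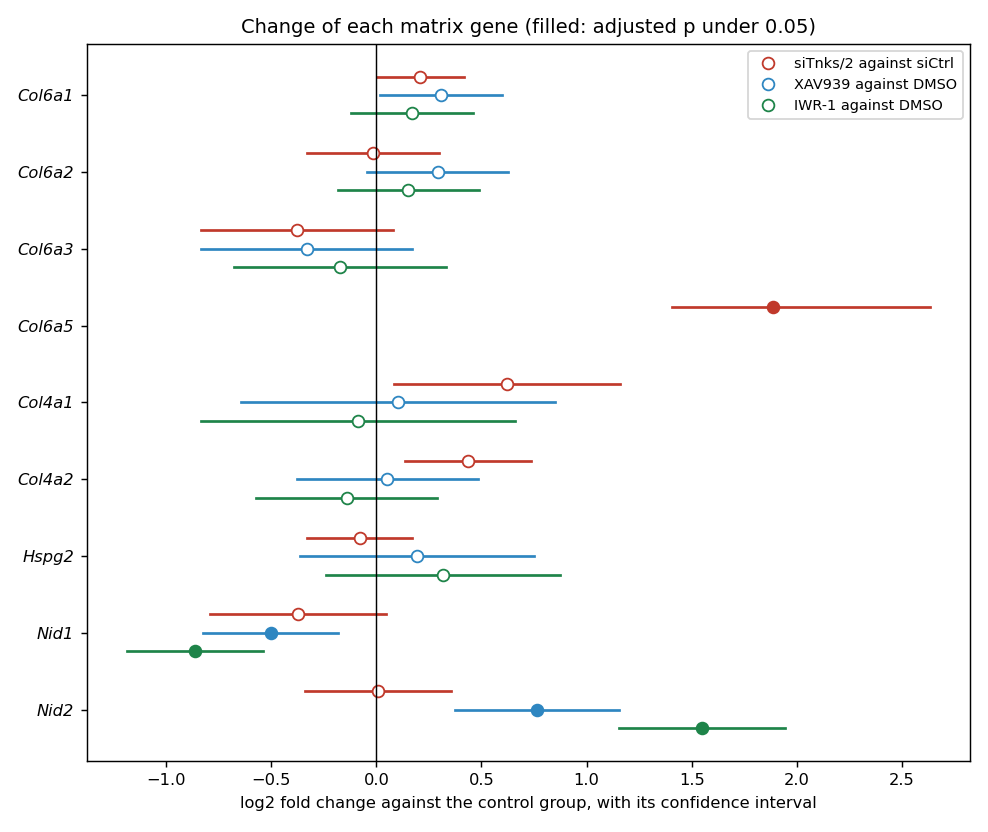
Log2 fold change of each gene against its control group (points) with its 95% confidence interval (lines) for siTnks/2, XAV939 and IWR-1. Filled points passed an adjusted p of 0.05: *Col6a5* with siTnks/2, and *Nid1* (lower) and *Nid2* (higher) with both inhibitors. *Col6a5* has no point for the inhibitors because too few libraries there reached the filter level.

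A gene was called where its adjusted p was under 0.05 in edgeR's quasi-likelihood test over all tested genes. With siTnks/2, 1 of the 9 genes was called (*Col6a5*, higher), while 18.0% of all 13672 tested genes were. With XAV939, 2 of 8 tested were called (*Nid2* higher, *Nid1* lower), against 17.4% of 13873 genes, and with IWR-1 the same 2 of 8, against 36.4%. The median log2 fold change of the 9 genes was 0.01 with siTnks/2, and that of the 8 tested in the drug experiment was 0.15 with XAV939 and 0.03 with IWR-1. Libraries carrying the same replicate number deviated together in both experiments, although DMSO replicate 2 was closer to replicate 1 of both inhibitors than to their replicate 2. With the replicate number as a block, 5 of 9 genes were called with siTnks/2 (against 34.6% of all genes): *Col4a1*, *Col4a2* and *Col6a5* higher, *Col6a3* and *Nid1* lower. The block left the calls for both inhibitors as they were, against 33.4% of all genes with XAV939 and 47.5% with IWR-1.

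The main collagen VI chains were abundant and changed little. *Col6a1* (gene ID 12833, chromosome 10, 76708792 to 76726044, minus strand) encodes the α1 chain. Its level was 1775, 1920 and 2009 CPM in the siCtrl libraries and 2145, 2117 and 2330 CPM in the siTnks/2 libraries. In the drug experiment it was 2259, 2202 and 2398 CPM with DMSO, 2544, 3155 and 2777 with XAV939 and 2421, 2415 and 2874 with IWR-1. In each of the 3 comparisons every treated library lay above every control library. The differences were nevertheless small, with log2 fold changes of 0.21 (SE 0.088), 0.31 (SE 0.13) and 0.17 (SE 0.13), and none was called (adjusted p = 0.139, 0.134 and 0.353). Groups without overlap were found for 43.8%, 33.2% and 51.1% of all genes in these comparisons and for 3 of the members tested in each.

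*Col6a2* (gene ID 12834, chromosome 10, 76595756 to 76623630, minus strand), the neighbour of *Col6a1* and source of the α2 chain, followed it in the drug experiment. It stood at 1375, 1329 and 1560 CPM with DMSO, at 1470, 1974 and 1775 CPM with XAV939 and at 1428, 1457 and 1856 CPM with IWR-1. The groups overlapped, and the log2 fold changes of 0.29 (SE 0.15) and 0.15 (SE 0.15) were not called (adjusted p = 0.214 and 0.474). In the siRNA experiment the libraries ranged from 1101 to 1270 CPM with siCtrl, and were at 1231, 968 and 1350 CPM with siTnks/2. Knockdown replicate 2 was the lowest of these 6 libraries and the other knockdown libraries lay within or above the control range (log2 fold change −0.02, SE 0.13, adjusted p = 0.943). The count ratio of *Col6a1* to *Col6a2* was 1.59 ± 0.020 with siCtrl, 1.61 ± 0.065 with DMSO, 1.63 ± 0.088 with XAV939, 1.63 ± 0.076 with IWR-1 and 1.88 ± 0.26 (all SD, n = 3) with siTnks/2. The 3 knockdown libraries (1.74, 2.19 and 1.73) all lay above the 3 control libraries (1.58 to 1.61).

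*Col6a3* (gene ID 12835, chromosome 1, 90766860 to 90844001, minus strand) encodes the long α3 chain of the usual collagen VI molecule. Its level was 2199, 2064 and 2427 CPM with siCtrl and 1676, 1274 and 2203 CPM with siTnks/2. Each knockdown library was lower than the control library of its number, although the highest of them exceeded 2 control libraries. The log2 fold change of −0.38 (SE 0.19) was not called without the block (adjusted p = 0.210), but was called with it (−0.41, SE 0.11, adjusted p = 0.0405). It was also called when siTnks/2 replicate 3 was left out (adjusted p = 0.0481). In the drug experiment the gene ranged from 1025 to 1732 CPM with DMSO, from 828 to 1176 with XAV939 and from 981 to 1491 with IWR-1. These ranges overlapped, at log2 fold changes of −0.33 (SE 0.23, adjusted p = 0.343) and −0.17 (SE 0.23, adjusted p = 0.594).

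The balance of the α3 and α1 transcripts differed between libraries. Per kilobase of exon, the ratio of *Col6a3* to *Col6a1* was 0.454, 0.394 and 0.442 with siCtrl and 0.286, 0.220 and 0.346 with siTnks/2. All knockdown libraries lay below all control libraries. With DMSO it was 0.194, 0.170 and 0.265, with XAV939 0.119, 0.132 and 0.155 and with IWR-1 0.148, 0.157 and 0.190. The XAV939 libraries lay below the DMSO libraries and the IWR-1 libraries overlapped with them. These ratios were not tested. Fibroblast markers (10 genes, led by *Col1a1* and *Col3a1*) summed to 5303, 3419 and 5686 CPM with siCtrl, and to 4162, 1627 and 4561 CPM with siTnks/2. They were lowest in replicate 2 of both groups, as *Col6a3* was. Of 8 tested with siTnks/2, 0 were called, against 18.0% of all genes. With the block 3 were called lower and 0 higher, against 34.6% of all genes. In the drug experiment their sum was 8860 to 11143 CPM with DMSO, 3998 to 5337 with XAV939 and 3030 to 4906 with IWR-1. Their part in the *Col6a3* values was not tested.

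*Col6a5* (gene ID 665033, chromosome 9, 105856070 to 105962463, minus strand), one of the alternatives to the α3 chain, was nearly silent but had more reads with the knockdown. The study reports it as undetected in its separate mRNA measurements on mouse chondrocytes given the siRNAs or inhibitors. It had 16, 9 and 21 reads in the siCtrl libraries and 63, 56 and 57 reads in the siTnks/2 libraries. As CPM, these were 0.498, 0.333 and 0.643 against 2.19, 2.00 and 1.86, and each knockdown library was well above every control. The log2 fold change was 1.89 (SE 0.26, 95% interval 1.41 to 2.63, adjusted p = 0.00662), a 3.70-fold rise to a level that was still the lowest of the 9 genes. All 6 libraries reached the level of the filter on low counts, and without the filter the value was 1.88 (SE 0.27, adjusted p = 0.00463). Requiring 10 reads in every library removed the gene, since siCtrl replicate 2 had 9.

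In the drug experiment *Col6a5* had 5, 18 and 13 reads with DMSO, 3, 5 and 6 with XAV939 and 3, 7 and 6 with IWR-1. The inhibitor libraries, with 3 to 7 reads, lay below 2 of the 3 DMSO libraries, and only 2 of the 9 libraries reached the level of the filter, so that the gene was not tested. When only genes without any read were removed, its log2 fold changes were −1.04 (SE 0.56, adjusted p = 0.143) and −0.95 (SE 0.54, adjusted p = 0.127). The gene passed the filter when DMSO replicate 1 or any inhibitor library was left out, through the DMSO libraries, where it was highest. It was called only without DMSO replicate 1, lower with IWR-1 (−1.26, adjusted p = 0.0357) but not with XAV939 (−1.34, adjusted p = 0.0598). That call rests on a gene kept by the group where it was highest. In 1 model over both experiments, the *Col6a5* change with XAV939 was 2.92 lower (log2 scale, SE 0.60, adjusted p = 0.00293) than that with siTnks/2, and the change with IWR-1 was 2.83 lower (SE 0.59, adjusted p = 0.00130). The other 2 alternative-chain genes were close to 0: *Col6a4* had at most 2 and *Col6a6* at most 8 reads in any of the 15 libraries.

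Both collagen IV genes were higher in each knockdown library than in its control of the same number. *Col4a1*, for the α1(IV) chain, was at 91.6, 71.9 and 91.1 CPM with siCtrl and at 147, 86.0 and 159 CPM with siTnks/2. *Col4a2*, for the α2(IV) chain, was at 148, 131 and 151 CPM with siCtrl and at 201, 159 and 222 CPM with siTnks/2. Replicate 2 was the lowest library of both groups for both genes, and its knockdown library overlapped with the controls for *Col4a1* only. The log2 fold changes were 0.62 (SE 0.23, adjusted p = 0.0993) and 0.43 (SE 0.13, adjusted p = 0.0552), not called. With the replicate block they were 0.58 (SE 0.11, adjusted p = 0.0131) and 0.42 (SE 0.064, adjusted p = 0.00802), both called. Without siTnks/2 replicate 2 they were 0.85 (adjusted p = 0.00392) and 0.56 (adjusted p = 0.00512). That library carried the endothelial signal given above and had the least collagen IV of the 3 knockdown libraries. The part of that signal in the collagen IV values was not tested.

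**Figure D3:**
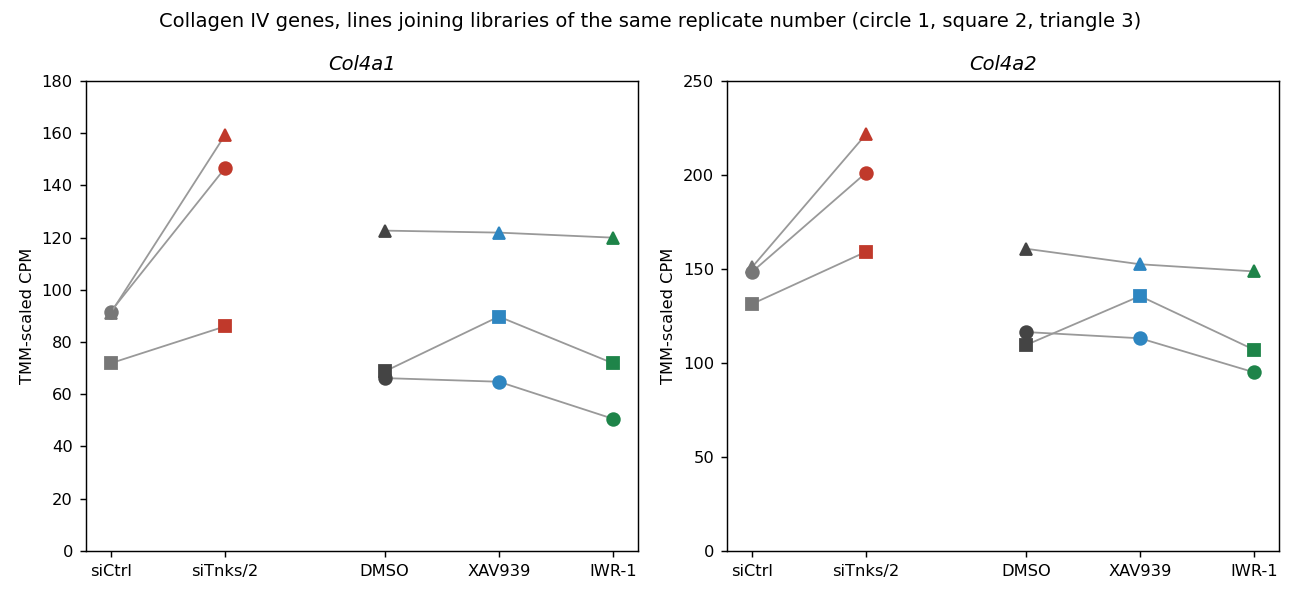
Levels of *Col4a1* and *Col4a2* in every library as TMM-scaled CPM, with lines joining libraries of the same replicate number within each experiment. All 3 lines climb from siCtrl to siTnks/2, whereas in the drug experiment replicate 3 lies highest in every group (120 to 123 CPM for *Col4a1*).

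The inhibitors left collagen IV without a called change. *Col4a1* was at 66.2, 68.7 and 123 CPM with DMSO, at 64.8, 89.8 and 122 CPM with XAV939 and at 50.6, 71.9 and 120 CPM with IWR-1. *Col4a2* was at 116, 110 and 161 CPM, at 113, 136 and 153 CPM and at 95.0, 107 and 149 CPM in the same groups. The libraries of replicate 3 were the highest for both genes in all 3 groups, so that the spread within a group was wide and mostly shared. The log2 fold changes for *Col4a1* were 0.10 with XAV939 (95% interval −0.64 to 0.85) and −0.09 with IWR-1 (−0.83 to 0.66). With the replicate block these intervals narrowed to −0.12 to 0.35 and −0.35 to 0.12. For *Col4a2* the blocked intervals were −0.15 to 0.28 and −0.36 to 0.06.

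The effect of siTnks/2 on collagen IV was also set against that of each inhibitor. Without the block neither difference was called with all libraries: for *Col4a2*, XAV939 minus siTnks/2 was −0.40 (adjusted p = 0.332) and IWR-1 minus siTnks/2 was −0.59 (adjusted p = 0.120). The latter was called in 1 of the fits that left out a library (adjusted p = 0.0307). With the block, the *Col4a2* differences were −0.38 (SE 0.13, adjusted p = 0.0460) and −0.58 (SE 0.13, adjusted p = 0.00353). For *Col4a1* the blocked differences were −0.48 (SE 0.16, adjusted p = 0.0427) and −0.71 (SE 0.16, adjusted p = 0.00449), and those without the block (−0.53 and −0.72) were not called (adjusted p = 0.473 and 0.287). The mean proportion of the 2 chains was similar in all groups, but it varied between libraries. The ratio of *Col4a1* to *Col4a2* per kilobase ran from 0.472 (IWR-1 replicate 1) to 0.716 (IWR-1 replicate 3). It rose from replicate 1 to 3 in each drug group. Per kilobase, *Col4a1* was at 0.523 ± 0.033 of *Col4a2* with siCtrl, 0.587 ± 0.094 with siTnks/2, 0.579 ± 0.088 with DMSO, 0.601 ± 0.10 with XAV939 and 0.595 ± 0.12 with IWR-1 (SD, n = 3).

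*Hspg2* (gene ID 15530, chromosome 4, 137468751 to 137570630, plus strand) encodes perlecan, the main heparan sulfate proteoglycan of the pericellular matrix. It was at 3166, 3034 and 3184 CPM with siCtrl and at 3026, 2610 and 3256 CPM with siTnks/2, groups that overlapped (log2 fold change −0.08, SE 0.11, adjusted p = 0.637). With DMSO it was at 1663, 1511 and 2196 CPM, with XAV939 at 1443, 2933 and 1768 CPM and with IWR-1 at 1833, 2348 and 2509 CPM. A single XAV939 library, replicate 2, stood above all others of the drug experiment, and without it the log2 fold change turned from 0.19 (SE 0.25) to −0.16. Neither XAV939 (adjusted p = 0.631) nor IWR-1 (0.32, SE 0.25, adjusted p = 0.363) gave a called change, and the 95% intervals of −0.36 to 0.75 and −0.24 to 0.87 were wide.

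The nidogens showed the clearest response to the inhibitors, and in opposite directions. *Nid1* (gene ID 18073, chromosome 13, 13437602 to 13512275, plus strand) was at 320, 299 and 367 CPM with DMSO. It was at 203, 227 and 266 CPM with XAV939 and at 161, 166 and 214 CPM with IWR-1. Every inhibitor library lay below every DMSO library. *Nid1* fell by 0.50 on the log2 scale with XAV939 (SE 0.15, 95% interval −0.82 to −0.18, adjusted p = 0.0374) and by 0.86 with IWR-1 (SE 0.15, interval −1.19 to −0.54, adjusted p = 0.000905).

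*Nid2* (gene ID 18074, chromosome 14, 19751257 to 19811787, plus strand) was at 190, 213 and 202 CPM in the DMSO libraries. Its values were 279, 453 and 294 CPM after XAV939 and 556, 669 and 546 CPM after IWR-1. The 3 groups did not overlap at all. *Nid2* rose by 0.76 on the log2 scale with XAV939 (SE 0.18, interval 0.37 to 1.15, adjusted p = 0.0141) and by 1.55 with IWR-1 (SE 0.18, interval 1.15 to 1.94, adjusted p = 8.05e-05), a 2.92-fold rise. The comparisons share their DMSO libraries. The 3′ end of *Nid2* overlaps the oppositely oriented gene *Rtraf* over 437 bases, and whether the counting used strand is not stated.

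The XAV939 calls were less firm than those of IWR-1. *Nid1* lost its call with XAV939 when only the 2 groups compared were fitted (adjusted p = 0.0554). The same held without DMSO replicate 1, DMSO replicate 3, XAV939 replicate 1, XAV939 replicate 2 or IWR-1 replicate 2 (adjusted p = 0.0907, 0.0905, 0.128, 0.0939 and 0.0578). *Nid2* lost its XAV939 call without DMSO replicate 1 (adjusted p = 0.0626). With IWR-1 both genes were called in every fit, the adjusted p staying at or under 0.00713 for *Nid1* and 0.000878 for *Nid2* when any library was left out. With the block, the XAV939 values were −0.51 (adjusted p = 0.00122) for *Nid1* and 0.73 (adjusted p = 0.000592) for *Nid2*.

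**Figure D4:**
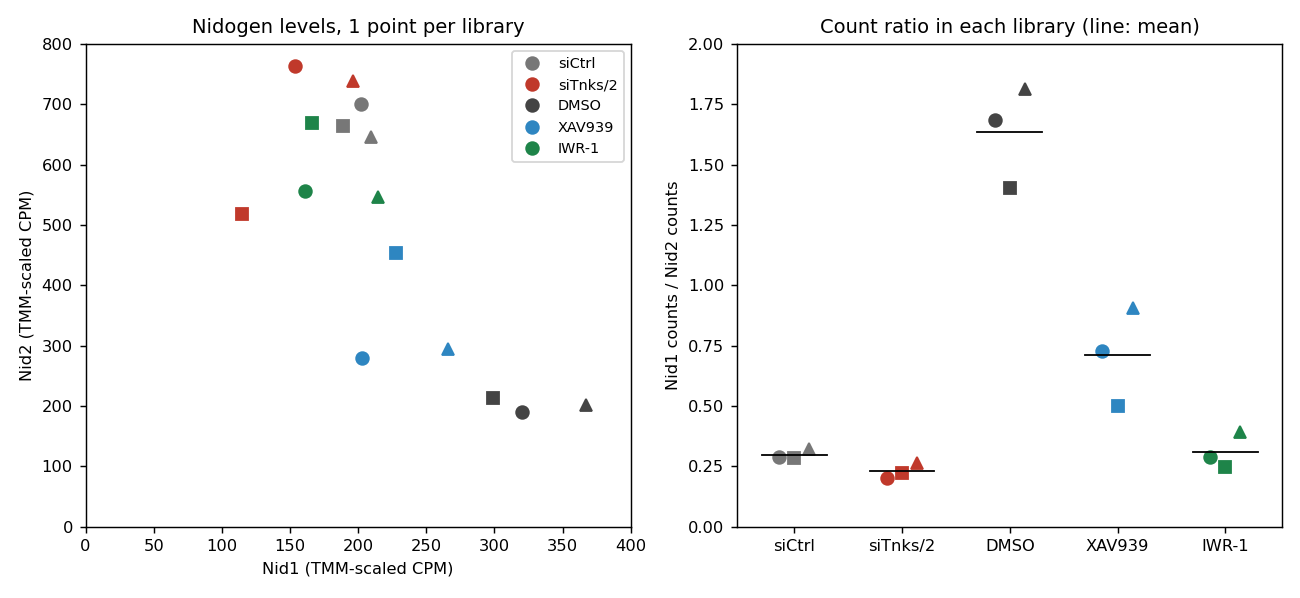
Left, level of *Nid2* against *Nid1* in each library (TMM-scaled CPM, 1 point per library). Right, the ratio of *Nid1* to *Nid2* counts in each library with the group mean as a bar. DMSO libraries lie between 1.40 and 1.81, XAV939 libraries between 0.502 and 0.904 and IWR-1 libraries between 0.249 and 0.392, beside the siCtrl libraries at 0.285 to 0.324.

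The proportion of the nidogens moved over a wide range. With DMSO, *Nid1* reads exceeded *Nid2* reads in all 3 libraries (ratio 1.63 ± 0.21, SD, n = 3). The ratio was 0.711 ± 0.20 with XAV939, 0.310 ± 0.074 with IWR-1, 0.299 ± 0.022 with siCtrl and 0.229 ± 0.033 with siTnks/2. The siRNA control stood nearer to IWR-1 than to DMSO, although the experiments were scaled and tested separately and were not compared by a test. Per kilobase of exon the ratio was 1.22 ± 0.16 with DMSO and 0.231 ± 0.055 with IWR-1.

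Markers of other cells and of the chondrocyte state moved with the nidogens in the drug experiment. The summed level of the 15 chondrocyte markers was 29426 to 39597 CPM with DMSO, 42213 to 61309 with XAV939 and 98897 to 123868 with IWR-1. Of these 15 markers, 7 were called higher with XAV939 (2 without DMSO replicate 1, 13 with the block) and 14 with IWR-1. With IWR-1 and the block, 1 was called lower. *Prg4* had lower means with XAV939 (667 CPM) and IWR-1 (508 CPM) than with DMSO (714 CPM), and *Col2a1* made up most of the sum. The marker counts stand against 17.4% of all tested genes called with XAV939 and 36.4% with IWR-1 (33.4% and 47.5% with the block). The fibroblast sums given above moved the other way, with 4 of 9 tested markers called lower with each inhibitor and 1 higher with IWR-1. The sum of 9 osteoblast markers was 5620 to 6403 CPM with DMSO, 2501 to 3198 with XAV939 and 2001 to 3199 with IWR-1. *Col1a1*, which the fibroblast list also holds, made up most of this sum and was the 1 osteoblast marker called lower with each inhibitor, whereas 3 of 8 tested were called higher with XAV939 and 4 with IWR-1 (*Sp7*, *Bglap* and *Bglap2* in both). In the siRNA experiment the sum was 2005 to 3830 CPM with siCtrl and 1030 to 3273 CPM with siTnks/2, and 2 of 9 markers were called higher and 0 lower (5 and 0 with the block, 1 to 4 higher when 1 library was left out). There, 18.0% of all tested genes were called, and 34.6% with the block. The part of these markers in the nidogen values was not tested.

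In the knockdown, *Nid1* was at 202, 189 and 209 CPM with siCtrl and at 153, 115 and 196 CPM with siTnks/2. Each knockdown library was lower than its control of the same number, by 0.40, 0.72 and 0.09 on the log2 scale, and 1 of the 3 overlapped with the controls. The log2 fold change of −0.37 (SE 0.18, adjusted p = 0.181) was not called, but that with the replicate block was (−0.40, SE 0.12, adjusted p = 0.0448), as was the value without siTnks/2 replicate 3 (−0.58, adjusted p = 0.0372). *Nid2* was at 700, 664 and 645 CPM with siCtrl and at 763, 518 and 739 CPM with siTnks/2. The knockdown libraries lay on both sides of the controls (log2 fold change 0.01, SE 0.15, 95% interval −0.34 to 0.36, adjusted p = 0.978). The chondrocyte marker sum was 94913 to 126627 CPM with siCtrl and 136523 to 219307 CPM with siTnks/2, highest in siTnks/2 replicate 2, which had the lowest *Nid1* and *Nid2* of the knockdown libraries.

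The effects were then compared with each other. For *Nid2*, the change with IWR-1 exceeded that with siTnks/2 by 1.53 on the log2 scale (SE 0.25, adjusted p = 0.000530). The corresponding difference for XAV939 was 0.74 (SE 0.25) and was not called (adjusted p = 0.0615). It was called with the block (0.73, SE 0.17, adjusted p = 0.00859), with upper-quartile scaling and with DESeq2 in place of edgeR. Leaving out XAV939 replicate 1 or 3 also gave a call (adjusted p = 0.0411 and 0.0420). For *Nid1*, IWR-1 minus siTnks/2 was −0.50 (SE 0.24, adjusted p = 0.146), and with the block −0.48 (SE 0.14, adjusted p = 0.0200). It was also called without siTnks/2 replicate 2 (adjusted p = 0.0311). The XAV939 effect on *Nid1* differed from that of siTnks/2 by −0.14 (95% interval −0.65 to 0.37, adjusted p = 0.736). In all, 1 of the 9 genes was called for XAV939 minus siTnks/2 (13.5% of 14271 genes), and 2 for IWR-1 minus siTnks/2 (24.4%), *Col6a5* in both. With the block these counts became 4 (28.2%) and 5 (36.3%).

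XAV939 and IWR-1 were compared directly, at the same dose and time, for the 8 genes tested. Only *Nid2* differed with an adjusted p under 0.05 (17.6% of all genes did), being higher with IWR-1 by 0.79 on the log2 scale (SE 0.18, adjusted p = 0.0114). That call was lost without IWR-1 replicate 2 (0.69, adjusted p = 0.0562). *Nid1* was lower with IWR-1 by a log2 difference of −0.36 (SE 0.15, adjusted p = 0.114), which was called with the block (−0.37, SE 0.088, adjusted p = 0.00849). For the other 6 genes the log2 difference was between −0.19 and 0.16. The intervals were widest for *Col4a1* (−0.93 to 0.56) and narrowest for *Col6a1* (−0.43 to 0.15).

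Which genes had the pattern most like that of each member was asked over the 13342 genes tested in both experiments. Likeness was the root mean square difference over the 15 libraries, each given as log2 CPM relative to the control group of its experiment. It is a description, since libraries share controls and replicate numbers. *Col4a2* was the nearest of 13341 genes to *Col4a1* (difference 0.200), followed by *Adam19* (0.215) and *Shc2* (0.233). Seen from *Col4a2*, *Adam19* (0.130), *Map4k4* (0.132) and *Rnf157* (0.135) came first and *Col4a1* took rank 79.

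*Col6a1* and *Col6a2* differed by less than the collagen IV pair (0.135), at rank 98 from *Col6a1* and rank 27 from *Col6a2*, whereas *Col6a3* was at rank 9797 for *Col6a1* and 7804 for *Col6a2*. The genes nearest to *Col6a1* were *Dgkq*, *Pcnx3* and *Ehmt1*, and those nearest to *Col6a2* were *Ap1ar*, *Ptk7* and *Ppip5k1*. For *Col6a3* they were *Rbms1*, *Cmklr1* and *Lamc1*, the laminin γ1 chain (0.130). *Kif13a*, *Nup188* and *Amotl1* lay nearest to *Hspg2*. *Nid1* was closest to *Frmd6*, *Igf1r* and *Pdlim5*, and *Nid2* to *Wars*, *Dctd* and *Slc7a5*. Of the 13341 genes ordered by likeness to *Nid1*, *Nid2* took rank 13009.

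**Figure D5:**
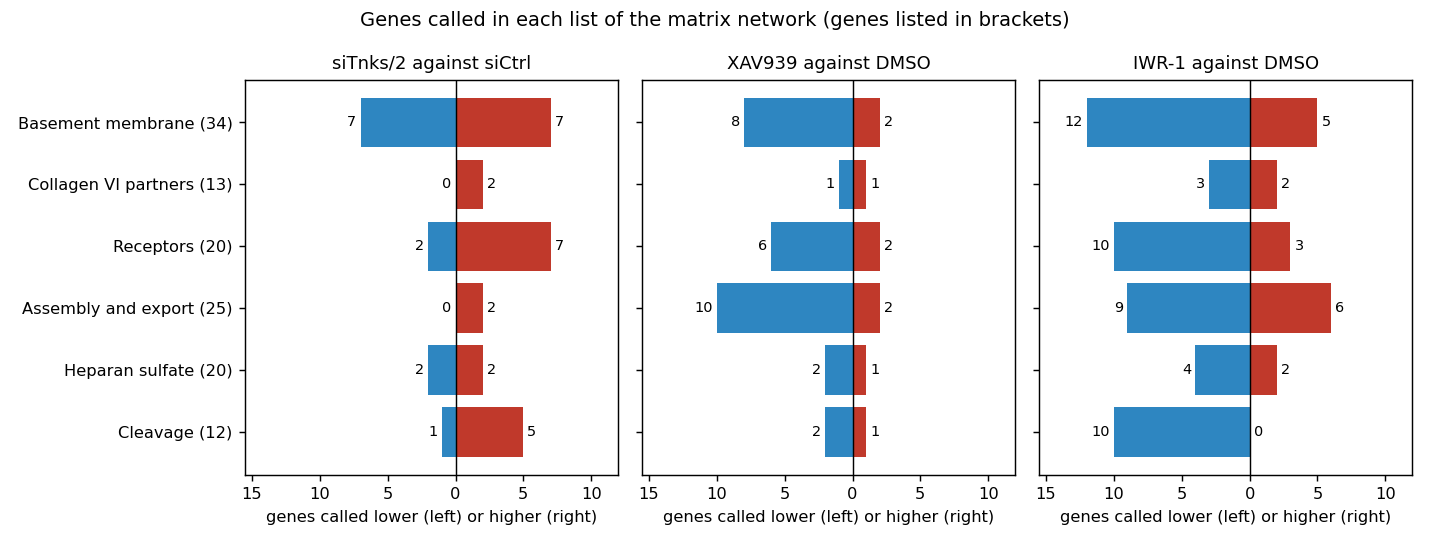
Number of genes called lower (blue, left of 0) or higher (red, right of 0) in each of 6 gene lists around these matrix genes, for the 3 comparisons with controls. Lists hold 12 to 34 genes. Of the matrix-cutting proteases, 10 were called lower and 0 higher with IWR-1.

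The genes around this layer were described by 6 lists, whose counts stand against 18.0% of all tested genes called with siTnks/2, 17.4% with XAV939 and 36.4% with IWR-1. Among 34 other basement membrane components, 7 were called higher and 7 lower of 32 tested with siTnks/2, 2 and 8 of 30 with XAV939 and 5 and 12 of 30 with IWR-1 (43.8%, 33.3% and 56.7% of those tested). Their median log2 fold change was −0.26, −0.23 and −0.38. *Lama1* (laminin α1) rose in all 3 comparisons, by 1.20 (SE 0.19), 1.11 (SE 0.25) and 1.63 (SE 0.25), and *Lama5* (laminin α5) fell in all 3, at −1.01 (SE 0.16), −1.46 (SE 0.23) and −1.68 (SE 0.24). *Lamb3* (laminin β3) and *Smoc1* (a calcium-binding basement membrane protein) were called in all 3 with a change of direction. *Lamb3* was lower with siTnks/2 (−0.69) and higher with XAV939 (0.64) and IWR-1 (1.39). *Smoc1* was higher with siTnks/2 (0.66) and lower with XAV939 (−0.48) and IWR-1 (−1.76).

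The genes with the largest called changes in this list also included some at low level. *Lamc3* rose from 0.656 ± 0.15 to 3.03 ± 0.18 CPM with siTnks/2 and *Lama3* fell from 9.78 ± 1.11 to 3.05 ± 1.32 CPM (SD, n = 3). *Frem2* fell from 2.13 ± 0.24 CPM with DMSO to 0.483 ± 0.073 with XAV939 and 0.503 ± 0.19 with IWR-1.

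Of 13 genes for collagen VI partners, 2 were called higher and 0 lower of 11 tested with siTnks/2, 1 and 1 with XAV939 and 2 and 3 with IWR-1. These shares (18.2%, 18.2% and 45.5%) lay near those of all genes. The matrilins, which bridge collagen VI to the cartilage matrix, made up all the genes called higher. *Matn1* rose by 1.27 (SE 0.20) with siTnks/2 and 2.94 (SE 0.47) with IWR-1, *Matn2* by 0.85 (SE 0.15) with siTnks/2, *Matn3* by 2.54 (SE 0.26) with IWR-1 and *Matn4* by 0.70 (SE 0.21) with XAV939. *Vwa1*, a pericellular matrix protein that binds perlecan and collagen VI, fell by 0.74 (SE 0.21) with XAV939 and by 1.31 (SE 0.21) with IWR-1. *Dcn* (−1.29) and *Lum* (−1.51), small leucine-rich proteoglycans, were also called lower with IWR-1 and are named here after their values were seen. *Vwa1* was scarce in all drug libraries (4.21 ± 0.40 CPM with DMSO).

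All 20 receptor genes were tested. With siTnks/2, 7 were called higher and 2 lower, with XAV939 2 and 6, and with IWR-1 3 and 10 (45.0%, 40.0% and 65.0%). *Cspg4*, the proteoglycan NG2 and a collagen VI receptor, rose in all 3 comparisons, by 0.41 (SE 0.090), 1.02 (SE 0.23) and 1.66 (SE 0.23). *Itga7*, a laminin-binding integrin chain, was higher with siTnks/2 (0.70, SE 0.18) and lower with XAV939 (−1.95, SE 0.15) and IWR-1 (−2.81, SE 0.16). *Gpc1*, a cell-surface heparan sulfate proteoglycan, was higher with siTnks/2 (0.65) and XAV939 (0.40) and lower with IWR-1 (−0.49). *Itga2*, of the collagen receptor α2β1, fell with siTnks/2 (−1.45, SE 0.37) and XAV939 (−1.52, SE 0.45). It was scarce in the drug experiment, with 28 to 49 reads with DMSO and 7 to 21 with XAV939. *Itga3* fell with siTnks/2 (−1.24, SE 0.15) and IWR-1 (−0.47, SE 0.12).

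Genes for collagen modification, folding, export and cross-linking (25 listed, 24 tested) were mostly not called with siTnks/2, where 2 were higher (*Colgalt2* 0.99, *Mia3* 0.35) and 0 lower. With XAV939, 2 were higher and 10 lower, and with IWR-1 6 higher and 9 lower (8.33%, 50% and 62.5% of those tested in the 3 comparisons). *Colgalt2* changed direction and was among those called lower with XAV939 (−0.54, SE 0.16). The lysyl oxidases, which cross-link collagens, took opposite directions. *Lox* fell from 4793 ± 592 CPM to 1890 ± 398 with XAV939 and 1029 ± 210 with IWR-1 (SD, n = 3), by 1.34 and 2.22 on the log2 scale. *Loxl3* rose by 1.21 (SE 0.13) and 1.56 (SE 0.13), and *Loxl4* by 0.66 (SE 0.19) and 2.58 (SE 0.20).

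Of the heparan sulfate genes (20 listed, 18 tested), 2 were called higher and 2 lower with siTnks/2, 1 and 2 with XAV939 and 2 and 4 with IWR-1, shares near those of all genes (22.2%, 16.7% and 33.3%). *Extl1*, a glycosyltransferase of the exostosin family, rose in all 3 comparisons, by 1.05 (SE 0.11), 1.77 (SE 0.29) and 2.46 (SE 0.30). *Sulf1*, a sulfatase that trims heparan sulfate outside the cell, fell in all 3, at −0.89 (SE 0.16), −1.25 (SE 0.18) and −0.95 (SE 0.18). *Hpse*, heparanase, fell with both inhibitors (−0.78 and −1.06) and *Hs6st2*, a sulfotransferase, with siTnks/2 (−1.23) and IWR-1 (−0.46).

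Among the proteases that cut this matrix, most calls were higher with siTnks/2 and all were lower with IWR-1. Of the 12 listed, 5 were called higher and 1 lower of 11 tested with siTnks/2 (median log2 fold change 0.36), 1 and 2 of 12 with XAV939 (−0.41) and 0 and 10 of 12 with IWR-1 (−1.47), or 54.5%, 25.0% and 83.3% of those tested. *Mmp13*, the main collagenase of cartilage, rose from 464 ± 39.8 to 919 ± 92.8 CPM with siTnks/2 and fell from 13066 ± 832 CPM with DMSO to 3363 ± 222 with IWR-1 (SD, n = 3). *Mmp3* (stromelysin 1) fell by 3.13 on the log2 scale with IWR-1. The aggrecanase *Adamts5* fell with both inhibitors (−1.22 with XAV939 and −2.68 with IWR-1). *Mmp9* was called in all 3, higher with siTnks/2 (2.70, SE 0.66) and XAV939 (0.86, SE 0.16) and lower with IWR-1 (−2.16, SE 0.18). The siTnks/2 value of *Mmp9* rests on 10 to 12 reads in the siCtrl libraries, of which 1 reached the filter level, against 32 to 143 in the knockdown libraries (without the filter 2.70, adjusted p = 0.0210). *Tll2* had 12 to 25 reads with DMSO, 6 to 10 with XAV939 and 0 to 1 with IWR-1. It passed the filter mainly through the DMSO libraries, where it was highest, and without the filter it was called lower with IWR-1 as well (adjusted p = 0.000150).

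Counts of called list genes mostly grew with the replicate block, and so did those over all tested genes. There the share called went from 18.0% to 34.6% with siTnks/2 and from 17.4% to 33.4% with XAV939. With siTnks/2 the list counts went from 14 to 21 for the basement membrane list, 2 to 5 for the collagen VI partners and 9 to 13 for the receptors. They went from 2 to 11 for assembly and export, 4 to 11 for heparan sulfate and 6 to 10 for the proteases. With XAV939 they went from 10 to 15, 2 to 4, 8 to 14, 12 to 12, 3 to 5 and 3 to 7 for the same lists. Further named genes were called with the block only. With siTnks/2, *Matn3* (0.60), *Matn4* (1.18) and *Mmp3* (1.59) were higher. *Loxl3* (−0.27), *Loxl4* (−0.55), *Hpse* (−1.02, adjusted p = 0.0414) and *Adamts5* (−1.41, adjusted p = 0.0481) were lower. With XAV939 they were *Matn1* (0.75) and *Matn3* (0.72), higher, and *Lama3* (−0.81), *Hs6st2* (−0.29), *Mmp3* (−0.57) and *Mmp13* (−0.49), lower. With IWR-1 they were *Matn4* (0.44) and *Colgalt2* (0.33), higher, and *Lama3* (−0.72), lower. With the block, *Matn1*, *Matn3* and *Matn4* were thus called higher in all 3 comparisons, and *Hpse*, *Adamts5*, *Hs6st2* and *Lama3* lower in all 3. In the drug experiment only the DMSO libraries of *Lama3* reached the filter level (13 to 19 reads, against 7 to 9 with XAV939 and 7 to 10 with IWR-1). Its calls there thus rest on a gene kept by the group where it was highest. The counts also depended on single libraries. With siTnks/2 the basement membrane list had 14 genes called, but 9 without siCtrl replicate 2, 5 without siCtrl replicate 1, 6 without siCtrl replicate 3 and 7 without siTnks/2 replicate 1. It had 17 without siTnks/2 replicate 2 and 15 without siTnks/2 replicate 3. The receptor list went from 9 to 3 without siCtrl replicate 1 or 3, 4 without siCtrl replicate 2 and 5 without siTnks/2 replicate 1. It rose to 12 without siTnks/2 replicate 2 and to 10 without siTnks/2 replicate 3. The protease list went from 6 to 1 without siCtrl replicate 1 or 3, to 2 without siCtrl replicate 2 or siTnks/2 replicate 1 and to 4 without siTnks/2 replicate 3. The remaining lists, with 2 to 4 genes called, ranged from 0 to 6, 0 to 4 and 1 to 6 (assembly and export, collagen VI partners, heparan sulfate). With XAV939 the receptor count of 8 became 3, 5 and 4 without DMSO replicate 1, XAV939 replicate 1 or XAV939 replicate 2, and the assembly and export count of 12 became 6 and 7 without DMSO replicate 1 or XAV939 replicate 1. The collagen VI partners called with XAV939 (*Matn4* and *Vwa1*) went from 2 to 0 without any of the DMSO libraries, XAV939 replicate 2 or IWR-1 replicate 2, and to 1 without IWR-1 replicate 1 or 3. With IWR-1 the protease count was between 8 and 10 and the basement membrane count between 13 and 18 when any library was left out.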

How the data were processed

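Libraries were made with the TruSeq Stranded mRNA kit. Per the labels and the submitters' processing notes, the authors trimmed reads (Trimmomatic 0.32), aligned them to mm10 (TopHat2 2.0.13) and counted them per gene (HTSeq 0.6.1p1). The annotation and strand setting are not given in the sources used here. The deposited values are raw read counts for 24134 Entrez gene IDs, of which 24051 matched a RefSeq symbol. Group and replicate number came from the sample titles.

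Counts of each table were tested with edgeR 4.0.16 (R 4.3.3, TMM scaling, filterByExpr, quasi-likelihood F test, two-sided, prior count 2) on 13672 (siRNA) and 13873 (drug) genes, with Benjamini-Hochberg adjustment over all of them. Differences between effects were tested in 1 model over 15 libraries (14271 genes). Errors of log2 fold changes are standard errors of the fit. DESeq2 1.42.0, other scalings and filters, a replicate block and leaving out each library were tried as alternatives. The code was tested on simulated data. For likeness, 0.5 CPM was added before taking log2. Exon lengths came from GENCODE M21.

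Replicate numbers in the titles were taken to pair the libraries: deviations from the group mean correlated at 0.424 to 0.519 (3 siRNA pairs) and 0.143 to 0.553 (9 drug pairs) for equal numbers, and at −0.489 to 0.318 for unequal ones. DMSO replicate 2 correlated more with XAV939 replicate 1 (0.318) and IWR-1 replicate 1 (0.316) than with XAV939 replicate 2 (0.143) or IWR-1 replicate 2 (0.244). No label says what a number shares. The genes and lists were chosen with earlier results of these data known. All members are named. From each list, the genes called in all 3 comparisons and the 2 largest called changes per comparison are named.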

Additional observations from a re-analysis of the deposited data

Results flagged for a closer look

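*Col6a5* and *Nid2* are given here because the difference between the effects of the knockdown and of an inhibitor passed its own test. For *Col6a5*, the log2 change with XAV939 minus that with siTnks/2 was −2.92 (SE 0.60, adjusted p = 0.00293), and IWR-1 minus siTnks/2 was −2.83 (SE 0.59, adjusted p = 0.00130). *Col6a5* had 176 reads over the 3 knockdown libraries, 46 with siCtrl, 36 with DMSO, 14 with XAV939 and 16 with IWR-1. Without the filter on low counts the differences were −2.91 (adjusted p = 0.00245) and −2.83 (adjusted p = 0.00105), and requiring 10 counts in every library removed the gene. For *Nid2*, IWR-1 minus siTnks/2 was 1.53 (SE 0.25, adjusted p = 0.000530). The siRNA and drug experiments also differed in how the cells were handled (transfection against compound, and a treatment time given only for the compounds), so that agent and experiment cannot be told apart.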

How the results depend on the processing

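With siTnks/2 the number of members called was 1, but 4 with DESeq2 (*Col6a1*, *Col4a1*, *Col4a2* and *Col6a5*, all higher), 5 with the replicate block and 0 of 8 when 10 counts were required in every library, which removed *Col6a5*. It ranged from 1 to 3 when 1 library was left out. With XAV939 it was 2, and 1 when only the 2 groups compared were fitted, with a range of 0 (without DMSO replicate 1) to 2 over left-out libraries. For IWR-1 against XAV939 it was 1, 2 with the block, and 0 to 1 with a library left out. For XAV939 minus siTnks/2 it was 1, and 2 with upper-quartile scaling, 2 with DESeq2, 4 with the block and 0 with the filter of 10 counts, ranging from 1 to 2 over left-out libraries. For IWR-1 minus siTnks/2 it was 2, 5 with the block and 1 with that filter. With IWR-1 against DMSO it was 2 in every alternative and 2 to 3 with a library left out. It was 3 without DMSO replicate 1, when *Col6a5* passed the filter through the DMSO libraries, where it was highest, and was called lower. Apart from the calls given in the text, the block changed no call of a member.

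*Nid2* with siTnks/2 changed sign with upper-quartile scaling (−0.000517) and with the block (−0.0123), around a value of 0.01. Leaving out libraries moved the log2 fold change across 0 for these uncalled values: with siTnks/2, *Nid2* (−0.0920 to 0.16), *Col6a2* (−0.12 to 0.11) and *Hspg2* (−0.15 to 0.00564); with XAV939, *Col4a1* (−0.17 to 0.44), *Col4a2* (−0.0684 to 0.23) and *Hspg2* (−0.16 to 0.39); with IWR-1, *Col4a1* (−0.50 to 0.26), *Col4a2* (−0.37 to 0.0436) and *Col6a3* (−0.40 to 0.0662). For IWR-1 against XAV939 these were *Col4a1* (−0.59 to 0.0696), *Col6a3* (−0.0529 to 0.28) and *Hspg2* (−0.0769 to 0.47), and for XAV939 minus siTnks/2 *Nid1* (−0.31 to 0.0613). The cause was not tested.

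With the longest transcript in place of the union of exons, the ratio of *Col6a1* to *Col6a2* per kilobase was 1.90 (siCtrl), 2.26 (siTnks/2), 1.93 (DMSO), 1.95 (XAV939) and 1.96 (IWR-1) in place of 3.02, 3.58, 3.06, 3.10 and 3.11. In siCtrl, the ratio of *Col4a1* to *Col4a2* became 0.575, that of *Col6a3* to *Col6a1* 0.476 and that of *Nid1* to *Nid2* 0.240. With 3 libraries a group, the intervals of *Col4a1* (−0.64 to 0.85) and *Hspg2* (−0.36 to 0.75) with XAV939 were too wide to show a change of the size of that of *Nid1* (−0.50) without the block.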
